A study of Homo sapiens with 20 samples.

Results

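Intronic cohesin peaks were defined as ChIP-seq peaks whose centre lay inside a protein-coding gene of GENCODE 44, in no exon of any annotated gene of any type, and more than 2 kb from any gene start or end, on chromosomes 1 to 22 and X of hg38. In CHM13 cells the rule took 27619 of 73739 RAD21 peaks, 12790 of 38153 SA1 peaks and 15874 of 44374 SA2 peaks. In RPE-1 cells it took 4768 of 14939 RAD21 peaks, 3890 of 10707 SA1 peaks and 2170 of 6389 SA2 peaks. Across the 6 lists 505 further peaks lay on other sequences and were not used. The rule used no measured value of the peaks other than their position.

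The study precipitated the cohesin subunits RAD21, SA1 and SA2 from hTERT CHM13 cells, a line from a complete hydatidiform mole, and from hTERT RPE-1 cells, a line of retinal pigment epithelium. Each CHM13 list came from 3 replicates and each RPE-1 list from 2, with matched total chromatin as input, and the labels give no treatment for either line. RAD21 was precipitated with a different Abcam antibody in each line, SA1 and SA2 with the same Bethyl antibodies in both. CHM13 chromatin was sheared on a Covaris sonicator and RPE-1 chromatin on a Bioruptor. Per the methods, Drosophila chromatin was added to the CHM13 experiments as an internal control. The paper reports more reads for most CHM13 ChIP libraries than for those of RPE-1 cells. A list gives only the start and end of each peak after the authors merged the replicates, so there is no error between replicates and no height, and the depth of the libraries cannot be read from it. The RPE-1 SA2 list is shorter on hg38 than the deposited list of the same subunit on CHM13 v1.0, by a larger share than any other list, and whether replicates were merged by the same rule on both builds is not given in the sources used here, which bears on every RPE-1 SA2 density and overlap below. Intervals in brackets are 95% intervals that cover counting error only. Neighbouring peaks are not independent, so the true error is larger. Wherever the lines are set side by side, the cell line cannot be told apart from the sonicator, the added Drosophila chromatin or the number of replicates. The same holds for the depth and, for RAD21, the antibody. The labelled cell types could not be checked against marker genes, because expression was not analysed here.

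Cohesin is a ring-shaped complex of SMC1A, SMC3, the kleisin RAD21 and either SA1 or SA2, the products of STAG1 and STAG2. It holds sister chromatids together and, in interphase, extrudes loops of chromatin along the fibre until it meets a barrier, the best known of which is the zinc-finger protein CTCF bound to its motif in one orientation. Inside gene bodies cohesin is known from CTCF sites, from enhancers within introns, and from studies in which transcribing RNA polymerase moved it towards the ends of genes.

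The 5 windows printed here show the kinds of intronic site that the lists hold. Each is 300 bases of the hg38 plus strand around a peak centre, and capitals mark a match to the CTCF strict core, the 12-base centre of the known CTCF motif, searched on both strands. The window in LPIN1, chr2:11779208-11779507, lies in intron 6 of 20 of the canonical transcript, is the centre of a CHM13 RAD21 peak of 875 bp that overlaps a peak in all other 5 lists, and has its match 6 bp from the centre on the minus strand, opposite to the gene. The window in GRIP1, chr12:66693939-66694238, is also shared by all 6 lists, with a match on the minus strand, the strand of the gene. The window in MB21D2, chr3:192816715-192817014, is shared by all 6 lists too, but holds neither the strict core nor the looser CTCF fragment AGGNGGC. The window in ETS1, chr11:128518162-128518461, is the centre of the widest of that gene's CHM13 RAD21 peaks without SA1 or SA2, 1554 bp long, in intron 3 of 9. The window in CALD1, chr7:134845486-134845785, is the centre of an intronic SA1 peak of CHM13 cells that overlaps no RAD21 peak, 1 of 63 such peaks counted in genes with 100 kb or more of intron space.
LPIN1: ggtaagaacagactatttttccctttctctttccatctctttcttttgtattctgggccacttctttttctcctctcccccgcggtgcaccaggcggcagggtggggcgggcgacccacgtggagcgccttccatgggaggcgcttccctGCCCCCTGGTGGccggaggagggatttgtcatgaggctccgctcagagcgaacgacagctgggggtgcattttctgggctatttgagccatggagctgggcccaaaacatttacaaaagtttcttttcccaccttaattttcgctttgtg
GRIP1: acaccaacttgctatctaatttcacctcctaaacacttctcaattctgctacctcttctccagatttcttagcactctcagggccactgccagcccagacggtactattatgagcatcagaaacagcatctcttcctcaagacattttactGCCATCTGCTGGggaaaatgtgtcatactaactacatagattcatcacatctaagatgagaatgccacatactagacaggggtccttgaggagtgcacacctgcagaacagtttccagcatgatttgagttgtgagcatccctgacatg
MB21D2: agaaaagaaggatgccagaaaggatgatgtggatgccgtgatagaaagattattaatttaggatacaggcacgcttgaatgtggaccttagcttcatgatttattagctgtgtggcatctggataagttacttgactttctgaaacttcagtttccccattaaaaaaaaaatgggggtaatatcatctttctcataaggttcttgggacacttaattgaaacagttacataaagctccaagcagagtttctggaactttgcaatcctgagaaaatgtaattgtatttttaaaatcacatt
ETS1: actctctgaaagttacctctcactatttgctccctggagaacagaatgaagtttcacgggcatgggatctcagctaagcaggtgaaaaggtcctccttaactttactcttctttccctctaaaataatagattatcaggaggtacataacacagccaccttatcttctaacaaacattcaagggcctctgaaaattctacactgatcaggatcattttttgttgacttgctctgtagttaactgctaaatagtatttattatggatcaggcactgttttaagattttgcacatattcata
CALD1: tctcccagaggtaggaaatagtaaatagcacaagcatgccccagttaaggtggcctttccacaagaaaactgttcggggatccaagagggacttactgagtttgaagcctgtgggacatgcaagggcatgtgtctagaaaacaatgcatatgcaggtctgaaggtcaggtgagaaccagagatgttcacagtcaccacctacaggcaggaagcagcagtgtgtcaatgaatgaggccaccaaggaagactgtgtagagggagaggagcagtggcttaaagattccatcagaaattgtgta
The GRIP1 and ETS1 windows were added after values were seen. Of the 15 CHM13 RAD21 peaks found in all 6 lists in the 20 genes densest in RAD21 (10 per line), 1 held a single strict core within 150 bases of its centre and 9 held neither motif.

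Intron space, the sequence in which a peak could qualify, covered 1083 Mb or 37.2% of the 2911 Mb of sequence without N. Of the CHM13 peaks, 37.5% (37.1 to 37.8) of RAD21, 33.5% (33.1 to 34.0) of SA1 and 35.8% (35.3 to 36.2) of SA2 were intronic. Of the RPE-1 peaks, 31.9% (31.2 to 32.7) of RAD21, 36.3% (35.4 to 37.2) of SA1 and 34.0% (32.8 to 35.1) of SA2 were. Per Mb of intron space this came to 25.5 RAD21, 11.8 SA1 and 14.7 SA2 peaks in CHM13, against 4.40, 3.59 and 2.00 in RPE-1.

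Against all other sequence, which includes promoters, exons and gene ends, the density in introns was lower for 4 of the 6 lists. The ratio of densities was 0.851 (0.833 to 0.869) for CHM13 SA1, 0.940 (0.922 to 0.958) for CHM13 SA2, 0.791 (0.764 to 0.819) for RPE-1 RAD21 and 0.868 (0.824 to 0.914) for RPE-1 SA2. It was 1.01 (0.995 to 1.03) for CHM13 RAD21 and 0.963 (0.925 to 1.002) for RPE-1 SA1, both intervals including 1. Centromeric sequence was not removed from this or the next comparison. The paper reports negligible cohesin peak density in α-satellite arrays, and the part of such sequence in the ratios was not tested. Against sequence outside genes alone all 6 ratios lay above 1. There CHM13 RAD21 stood at 1.35 (1.32 to 1.37), SA1 at 1.04 (1.02 to 1.07) and SA2 at 1.14 (1.11 to 1.16), with 1.04 (0.995 to 1.08), 1.11 (1.06 to 1.16) and 1.05 (0.988 to 1.12) for the RPE-1 lists, of which only the SA1 interval excluded 1. Requiring the whole peak to lie in intron space lowered the CHM13 RAD21 ratio against all other sequence to 0.810 and that of RPE-1 RAD21 to 0.641.

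RAD21 peaks were more often intronic in CHM13 than in RPE-1 cells (odds ratio 1.28, 1.23 to 1.33), as were SA2 peaks (1.08, 1.02 to 1.15), whereas SA1 peaks were less often intronic (0.884, 0.845 to 0.924). With only those SA1 peaks that overlap both other subunits the SA1 odds ratio was 1.12. Just outside the 2-kb limit, between 1 and 2 kb from a gene start or end, CHM13 RAD21 had 31.4 peaks per Mb and RPE-1 RAD21 7.46, and just inside it, between 2 and 3 kb, 26.7 and 6.99.

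Intronic peaks had a median width of 708 bp (RAD21), 615 bp (SA1) and 609 bp (SA2) in CHM13, and of 439, 393 and 361 bp in RPE-1, close to the 733, 612 and 608 bp and the 445, 400 and 359 bp of the peaks elsewhere. The mean GC content of their 300-bp windows was 43.7% for CHM13 RAD21 and 49.3% for RPE-1 RAD21, lower than the 47.7% and 51.9% around other peaks, and above the 40.9% of intron space as a whole. Introns of the canonical transcript held 83.1 to 87.1% of the intronic peaks per list, and the rest lay in introns of other transcripts. Chromosome X had the lowest intronic density of the 23 chromosomes in all 6 lists, for RAD21 14.4 per Mb against a median chromosome of 26.0 in CHM13 cells and 2.33 against 4.49 in RPE-1 cells.

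Pooled over genes of like length, RAD21 was ordered by length in RPE-1 but not in CHM13 cells. In RPE-1 cells intronic RAD21 density was lower in each longer class of genes, with 7.30 peaks per Mb (6.85 to 7.78) in genes under 50 kb, 5.81 at 50 to 100 kb, 4.71 at 100 to 300 kb, 3.54 at 300 to 500 kb, 2.78 at 500 to 1000 kb and 1.28 (1.06 to 1.53) in the 71 genes of 1000 kb or more. In CHM13 cells RAD21 density was highest in the middle classes, with 23.2, 25.3, 28.9, 28.1 and 23.2 peaks per Mb over the same first 5 classes and 14.5 (13.7 to 15.3) in the longest genes. CHM13 SA1 stayed between 12.3 and 12.7 up to 500 kb and was 6.74 in the longest genes, and CHM13 SA2 ran from 13.7 through 16.3 to 8.42. In RPE-1 cells SA1 went from 4.35 in the shortest to 1.50 in the longest class and SA2 from 2.81 to 0.538.

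**Figure D1:**
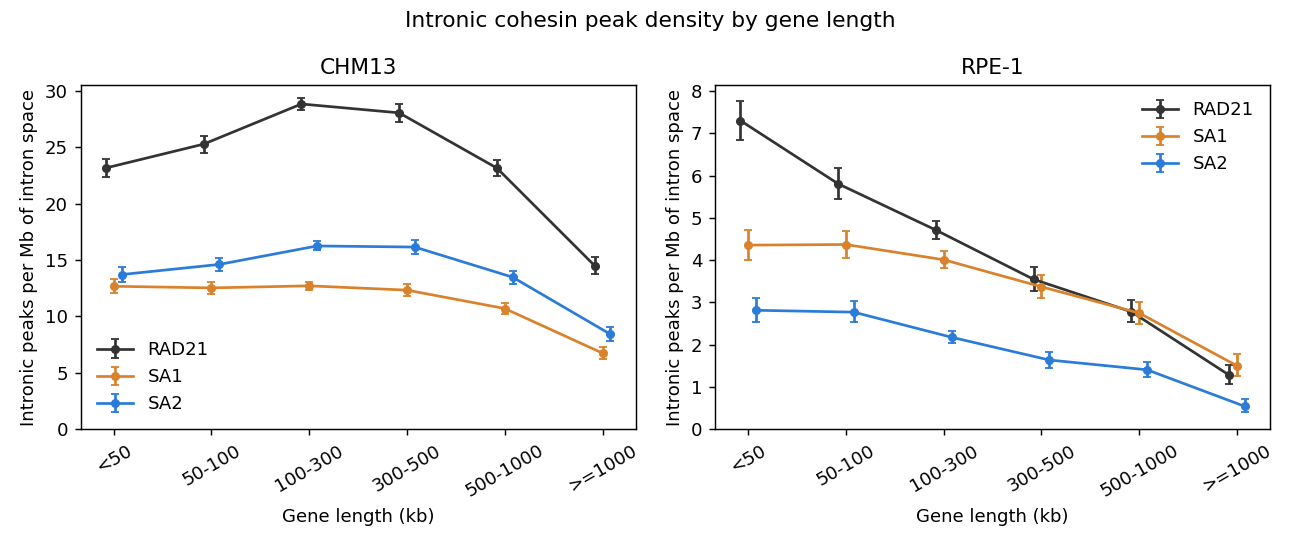
Intronic peaks per Mb of intron space (vertical axis, a different range in each panel) by gene length class in kb (horizontal axis), for RAD21, SA1 and SA2 in CHM13 (left) and RPE-1 cells (right), with bars for exact Poisson 95% intervals. RPE-1 RAD21 goes from 7.30 in the shortest to 1.28 in the longest genes, while CHM13 RAD21 peaks at 28.9 in genes of 100 to 300 kb.

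The density in the 823 genes of 300 kb or more relative to the 13351 genes under 100 kb was 0.427 (0.397 to 0.460) in the RPE-1 RAD21 list, 0.625 (0.577 to 0.676) in that of SA1 and 0.469 (0.421 to 0.523) in that of SA2. In CHM13 cells RAD21 stood at 0.955 (0.926 to 0.984), SA1 at 0.834 (0.798 to 0.870), and SA2 at 0.947 (0.910 to 0.985). The CHM13 over the RPE-1 ratio gave a factor of 2.23 in RAD21 (2.07 to 2.41), 1.33 in SA1 (1.22 to 1.46) and 2.02 in SA2 (1.80 to 2.26). These densities pool all intron space of a class. Gene by gene, over the 2946 genes with 100 kb or more of intron space, RAD21 density had little rank correlation with gene length. The Spearman value was -0.00919 for CHM13 and -0.00791 for RPE-1, while that with the GC content of intron space was 0.176 and 0.345. Of these genes 1368 had 0 RPE-1 RAD21 peaks and 323 had 0 CHM13 RAD21 peaks, and shorter genes were left out. Ties at 0 limit a rank correlation, so it does not settle how density runs with length. The CHM13 ratios depended on how peaks were counted. With the whole peak inside intron space RAD21 had 1.15, SA1 0.999 and SA2 1.12, while the 3 RPE-1 ratios stayed at or below 0.710.

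The CHM13 RAD21 peaks were also split by their presence in RPE-1 cells. Of the intronic RPE-1 RAD21 peaks 98.0% overlapped a CHM13 RAD21 peak, so the shared class is nearly the RPE-1 list counted again. Its ratio is therefore no separate result, and that of the other class follows from it and the whole CHM13 list. Those that overlapped an RPE-1 RAD21 peak numbered 2.63 per Mb in long and 6.37 per Mb in short genes, a ratio of 0.413 (0.384 to 0.445). Those that did not numbered 20.6 and 18.0 per Mb, a ratio of 1.15 (1.11 to 1.19). CHM13 RAD21 peaks with both SA1 and SA2 were also sparser in long genes (0.818, 0.782 to 0.857), and those with neither had a ratio of 0.983 (0.937 to 1.03). Base composition moved with gene length. From the shortest to the longest class the GC content of intron space went from 44.8 to 37.7% and the strict CTCF core from 5.65 to 1.98 matches per Mb. The part of GC content and CTCF motifs in the length pattern was not tested.

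Intronic peaks were denser towards the ends of genes. In the 6778 genes of 50 kb or more, each cut into 10 equal parts, RPE-1 RAD21 had 3.44 peaks per Mb (3.07 to 3.84) in part 1, next to the gene start, 3.79 in part 5 and 6.52 (5.97 to 7.11) in part 10, next to the gene end. RPE-1 SA1 had 3.23 and 5.67, and SA2 1.71 and 2.99, in parts 1 and 10. In CHM13 cells RAD21 went from 23.4 (22.4 to 24.4) to 28.6 (27.4 to 29.8), SA1 from 10.7 to 15.1, SA2 from 13.3 to 17.0.

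**Figure D2:**
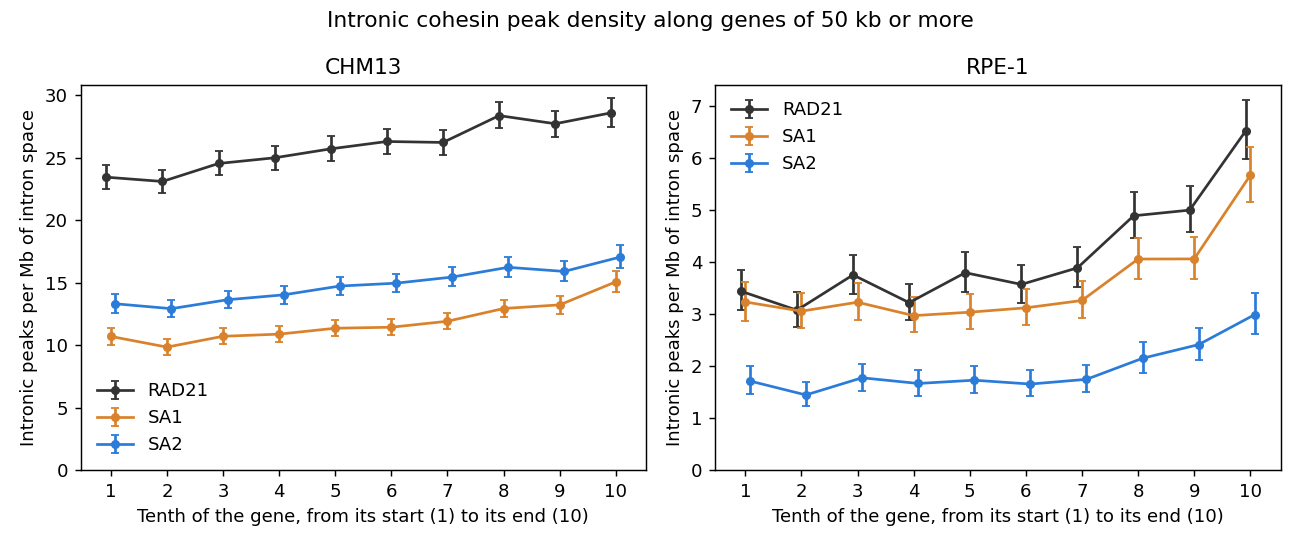
Intronic peaks per Mb of intron space (vertical axis, a different range in each panel) in each of 10 equal parts of the gene from start to end (horizontal axis), for genes of 50 kb or more in CHM13 (left) and RPE-1 cells (right), with bars for exact Poisson 95% intervals. In RPE-1 cells part 10 stands highest for all 3 subunits, at 6.52, 5.67 and 2.99, and in CHM13 cells the densities of RAD21, SA1 and SA2 end at 28.6, 15.1 and 17.0.

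The first 20% of the gene relative to the last 20% had a density ratio of 0.828 (0.795 to 0.862), 0.730 (0.688 to 0.774) and 0.799 (0.757 to 0.843) for the CHM13 lists of RAD21, SA1 and SA2, and of 0.572 (0.517 to 0.632), 0.658 (0.592 to 0.730) and 0.589 (0.509 to 0.681) for those of RPE-1. All 6 intervals excluded 1. The CHM13 ratio was 1.45 times the RPE-1 ratio for RAD21 (1.30 to 1.61) and 1.36 times for SA2 (1.16 to 1.58), and 1.11 times for SA1 (0.985 to 1.25), where the interval included 1. The strict CTCF core itself numbered 2.72 matches per Mb in part 1 and 5.48 in part 10, and its part in the gradient was not tested.

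Measured as distance, RPE-1 RAD21 peaks numbered 9.54 per Mb (8.42 to 10.8) at 2 to 5 kb from the gene end, 7.44 at 10 to 20 kb, 4.03 at 50 to 100 kb and 2.88 (2.65 to 3.12) at 200 to 500 kb. From the gene start the same list gave 5.90 at 2 to 5 kb, 5.00 at 50 to 100 kb and 3.35 at 200 to 500 kb. CHM13 RAD21 ran between 25.2 and 28.4 per Mb over all 7 distance classes from the gene end, and between 22.9 and 28.0 from the start. Genes far from their own end are long genes, so distance and gene length are not separate here.

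First introns, which often carry enhancers, were less dense than later introns in 5 of the 6 lists. The ratio was 0.750 (0.715 to 0.786) for CHM13 SA1 and 0.884 (0.849 to 0.920) for CHM13 SA2, and 0.694 (0.640 to 0.752), 0.645 (0.588 to 0.706) and 0.630 (0.555 to 0.713) for RPE-1 RAD21, SA1 and SA2. For CHM13 RAD21 it was 0.973 (0.944 to 1.002), with 24.6 and 25.3 peaks per Mb. The CHM13 ratio exceeded the RPE-1 ratio 1.40-fold in RAD21 (1.29 to 1.53), 1.16-fold in SA1 (1.05 to 1.29) and 1.40-fold in SA2 (1.23 to 1.60). Restricted to introns that start over 10 kb from the gene start, which leaves few first introns, CHM13 RAD21 had 1.25, SA1 0.949 and SA2 1.14. The 3 RPE-1 ratios stayed below 1 in that setting, between 0.630 and 0.783.

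Most intronic RAD21 peaks of CHM13 cells either had both SA proteins or neither. Of the 27619, 41.1% overlapped SA1 and SA2 peaks, 4.28% SA1 only, 14.7% SA2 only and 40.0% neither, an overlap being at least 1 base. Among RAD21 peaks elsewhere 44.3% had both, a difference of -3.24 percentage points (-3.98 to -2.51), and 36.4% had neither. In RPE-1 cells 33.5% of intronic RAD21 peaks had both, 26.7% SA1 only, 4.59% SA2 only and 35.3% neither. The share with both differed from that of other RPE-1 RAD21 peaks by 1.56 points, with an interval from -0.05 to 3.18 that includes 0. The RPE-1 SA2 list is the shortest of the 6, which limits how many peaks can overlap it.

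**Figure D3:**
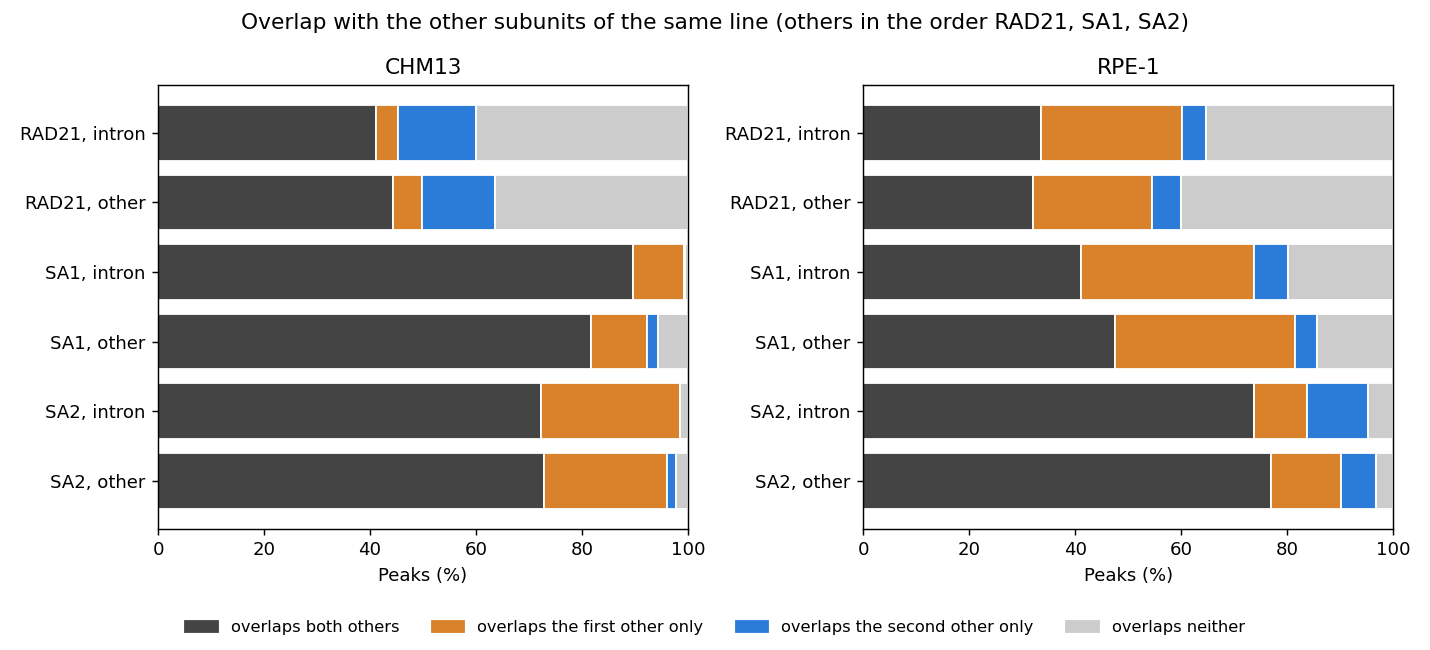
Share of peaks in percent (horizontal axis) by overlap with the other 2 subunits of the same line, for intronic peaks and all other peaks of each list, in CHM13 (left) and RPE-1 cells (right). The pale segment, peaks that overlap neither other subunit, is 40.0% of intronic RAD21 in CHM13 cells and 0.594% of intronic SA1 there, against 19.8% of intronic SA1 in RPE-1 cells.

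SA1 and SA2 peaks without RAD21 ran in opposite directions in the 2 lines. In CHM13 cells 0.743% of intronic SA1 peaks (95 of 12790) overlapped no RAD21 peak against 7.76% of SA1 peaks elsewhere, and 1.54% of intronic SA2 peaks against 4.01%. In RPE-1 cells 26.2% of intronic SA1 peaks (1021 of 3890) overlapped no RAD21 peak against 18.5% elsewhere, and 16.2% of intronic SA2 peaks against 9.91%. The differences were -7.02 points (-7.38 to -6.65) and -2.47 points (-2.77 to -2.17) in CHM13 cells and 7.75 (6.10 to 9.42) and 6.27 (4.51 to 8.09) in RPE-1 cells. These shares depend on the RAD21 list of each line. RAD21 and SA1 held 27619 and 12790 intronic peaks in CHM13 and 4768 and 3890 in RPE-1 cells. Their intron shares were 37.5 and 33.5% in CHM13 and 31.9 and 36.3% in RPE-1 cells. The part of list length and intron share in the directions was not tested. Of the 1021 RPE-1 SA1 peaks without RAD21, 97.4% (96.2 to 98.2) overlapped a RAD21 peak of CHM13 cells, as did 98.3% of the 351 such SA2 peaks. Both shares are near the 98.0% of intronic RPE-1 RAD21 peaks that overlapped a CHM13 RAD21 peak. They are not read as a trait of the peaks without RAD21. Of the 95 CHM13 SA1 peaks without RAD21, 2 overlapped a RAD21 peak of RPE-1 cells, a list with fewer peaks.

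Between the lines the overlap was one-sided, and the lists differ in length. CHM13 lists held 27619, 12790 and 15874 intronic RAD21, SA1 and SA2 peaks, and RPE-1 lists 4768, 3890 and 2170. So few RPE-1 peaks can match only a small part of the CHM13 lists, and the one-sidedness is not read as a trait of the lines. Of the intronic peaks of RPE-1 cells, 98.0% of RAD21, 98.1% of SA1 and 98.9% of SA2 overlapped a peak of the same subunit in CHM13 cells, each slightly above the 96.7, 97.1 and 98.2% of peaks elsewhere. Of the intronic peaks of CHM13 cells, 16.8% of RAD21, 29.6% of SA1 and 13.5% of SA2 had a counterpart in RPE-1 cells, against 21.1, 26.1 and 14.5% elsewhere. RAD21 differed by -4.24 points (-4.81 to -3.66), SA1 by 3.54 (2.58 to 4.50) and SA2 by -1.002 (-1.67 to -0.33). Because nearly all RPE-1 peaks overlap a CHM13 peak, these CHM13 shares nearly follow from the peak counts of the lists. The CHM13 differences thus largely restate the intron shares of the lines and are no separate result. With an overlap of 50% of both peaks required, the RPE-1 differences for SA1 and SA2 turned to -3.49 and -2.71 points. All 6 lists shared 1581 of the intronic CHM13 RAD21 peaks, 5.72% (5.46 to 6.00), against 6.91% of those elsewhere. The shortest list, RPE-1 SA2, limits both shares.

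CTCF sequence was more frequent under intronic peaks than in introns at large. The fragment AGGNGGC, searched on both strands in a 300-bp window around the peak centre, was found under 22.96, 30.1 and 26.8% of intronic RAD21, SA1 and SA2 peaks of CHM13, and under 44.6, 37.1 and 39.3% of those of RPE-1, where 14.5% of all 300-bp windows of intron space hold it. The strict core, which contains the fragment in some of its spellings, was found under 7.36, 14.1 and 11.3% of CHM13 peaks, under 24.1, 20.5 and 21.5% of RPE-1 peaks and in 0.102% of all windows. The LPIN1 and GRIP1 windows printed above are of this kind, and the MB21D2 window is not. A match is a stretch of letters and no CTCF binding was measured in these lists.

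The fragment was less frequent under intronic than under other peaks, by -6.09 points (-6.73 to -5.44) for CHM13 RAD21, -3.36 for CHM13 SA2, -1.80 (-3.50 to -0.08) for RPE-1 RAD21 and -3.26 for RPE-1 SA2, and by -1.64 for CHM13 SA1. The RPE-1 SA1 difference of -1.58 points had an interval from -3.48 to 0.33. With the strict core the direction turned for 5 lists, with 1.99 points more under intronic CHM13 SA1 peaks (1.28 to 2.72), 0.685 more under CHM13 SA2, 2.71 more under RPE-1 RAD21 (1.27 to 4.18), and 0.476 and 0.119 more under RPE-1 SA1 and SA2, with intervals that include 0 for the last pair. Under CHM13 RAD21 peaks the strict core differed by -0.176 points (-0.565 to 0.218). The mean GC content of the windows was 43.3 to 49.3% for the intronic peaks of the 6 lists and 46.4 to 51.9% for the other peaks, lower for intronic peaks in each list, and its part in these differences was not tested.

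Intronic strict cores under peaks lay somewhat more often on the strand opposite to the gene. Of the windows whose matches were on 1 strand in a gene of known direction, 47.3% (45.1 to 49.5) of 1990 under CHM13 RAD21 peaks and 44.5% (41.6 to 47.4) of 1120 under RPE-1 RAD21 peaks had the match on the strand of the gene. For SA2 the shares were 47.6% (45.3 to 49.9) in CHM13 and 45.3% (40.8 to 49.9) in RPE-1 cells, and for SA1 47.8% (45.4 to 50.1, which includes 50%) and 46.2% (42.8 to 49.7). Of the 6 shares, only the RPE-1 RAD21 one kept its call under every alternative tried. The same genomic sites recur across the 6 lists, so these shares are not independent of each other. The strand share of all strict cores in intron space was not counted, so no background other than 50% stands beside them.

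Of the 17012 coding genes with intron space, 7418 (43.6%) held at least 1 intronic RAD21 peak in CHM13 cells and 3557 (20.9%) in RPE-1 cells. SA1 peaks were found in 34.2% and 17.5% and SA2 peaks in 35.9% and 11.2% of these genes. The 2946 genes with 100 kb or more of intron space were used to compare genes. Of these, 2623 (89%) held a CHM13 RAD21 peak and 1578 (53.6%) an RPE-1 RAD21 peak. The median gene had 19.6 CHM13 RAD21 peaks per Mb and 2.21 RPE-1 RAD21 peaks per Mb, and the 90th percentile stood at 65.4 and 11.6. Across these genes the densities of the 2 lines had a Spearman correlation of 0.413 in RAD21, 0.536 in SA1 and 0.336 in SA2. SA1 and SA2 had 0.872 within CHM13 cells and 0.584 within RPE-1 cells. No RPE-1 RAD21, SA1 or SA2 peak was found in 1368, 1394 and 1975 of the 2946 genes, and such ties at 0 limit the correlations. The correlations are over genes, which share base composition and neighbours, and carry no test.

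The 10 genes densest in intronic RAD21 in CHM13 cells had 0 to 3 RAD21 peaks each in RPE-1 cells. ETS1, an ETS-family transcription factor at chr11:128458761-128587558 on the minus strand, led with 148 RAD21 peaks per Mb (84.4 to 240), from 16 RAD21, 3 SA1 and 7 SA2 peaks in 108 kb of intron space, and it had 0 peaks in all 3 RPE-1 lists (RAD21 0 to 34.0 per Mb). SMAD3, a transducer of TGF-beta signals, had 16, 2 and 11 RAD21, SA1 and SA2 peaks in CHM13 cells and 0 in each RPE-1 list. LPAR1, a receptor for lysophosphatidic acid, had 20, 7 and 8 peaks and again 0 in RPE-1 cells. MB21D2 followed ETS1 with 146 RAD21 peaks per Mb from 17 peaks, with 1 in RPE-1 cells.

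SEPTIN9, a septin of the cytoskeleton, had 24 CHM13 RAD21 peaks and 3 in RPE-1 cells. AFAP1, which binds actin filaments, had 21 and 2. CRIM1, a membrane protein that binds bone morphogenetic proteins, had 24 and 2, and GNG12, a G-protein gamma subunit, 16 and 2. CUBN, the endocytic receptor cubilin, had 38 and 2, and EXT1, a polymerase of heparan sulfate chains, 40 and 1. The 10 genes lay between 131 and 148 RAD21 peaks per Mb, and 3 of them had no RPE-1 RAD21 peak, as had 1368 of all 2946 genes. The other 7 lay above the RPE-1 median of 2.21 per Mb, from EXT1 at 3.26 to SEPTIN9 at 17.6, and SEPTIN9, GNG12 (16.6) and AFAP1 (13.1) lay above the RPE-1 90th percentile of 11.6. Together they held 232 CHM13 RAD21 peaks, of which 135 (58.2%) overlapped neither SA1 nor SA2, where the share over all 2946 genes was 40.3%. The genes were chosen for RAD21 density in this list, so these values are a description.

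**Figure D4:**
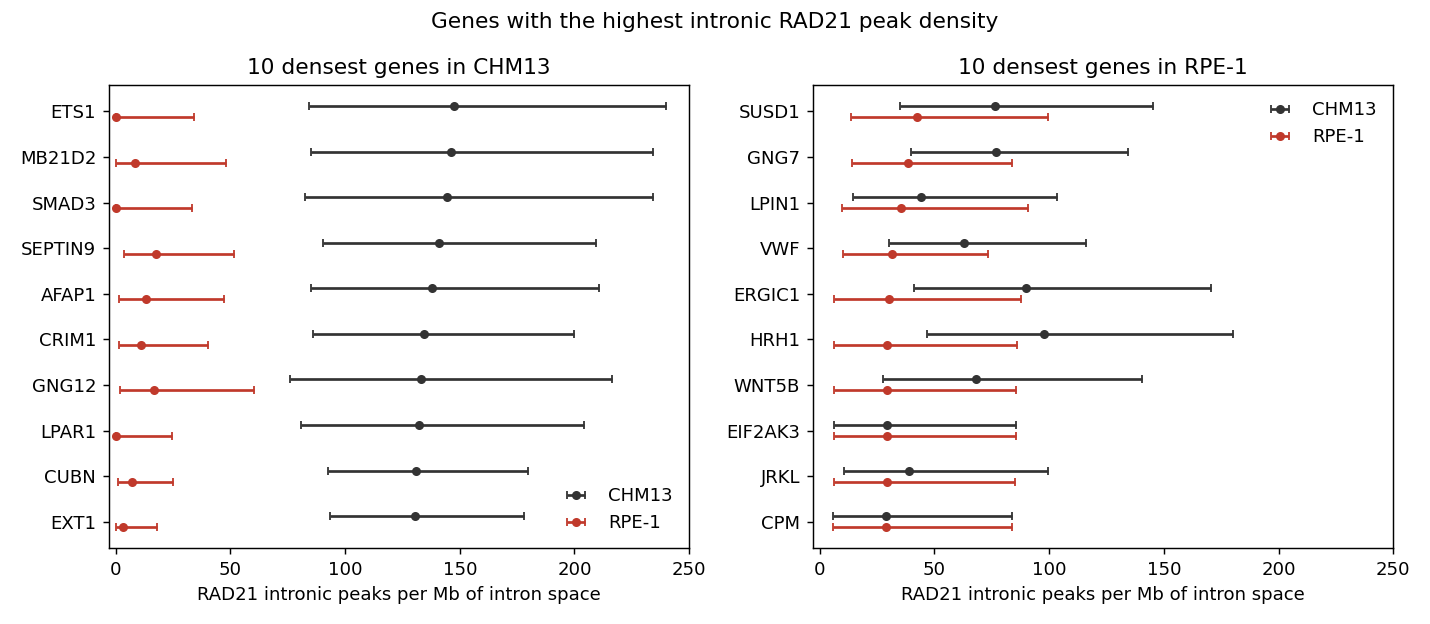
RAD21 intronic peaks per Mb of intron space (horizontal axis) in CHM13 and RPE-1 cells for the 10 genes densest in CHM13 (left) and the 10 densest in RPE-1 cells (right), with bars for exact Poisson 95% intervals. The genes of each panel were chosen for their density in one list, and the lists hold 27619 and 4768 intronic RAD21 peaks, so the distance between the lines within a panel is no result. The left genes lie between 131 and 148 in CHM13 cells and the right genes between 28.7 and 42.6 in RPE-1 cells.

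The 10 genes densest in RPE-1 RAD21 rested on few peaks. They shared no gene with the 10 of CHM13 cells, which is no result, because lists of 10 out of 2946 genes seldom overlap. Over all 2946 genes the RAD21 densities of the lines had a Spearman correlation of 0.413. SUSD1, at chr9:112040783-112175297 on the minus strand, led with 42.6 per Mb (13.8 to 99.3) from 5 peaks, and had 9 in CHM13 cells. GNG7, a G-protein gamma subunit, had 6 RPE-1 and 12 CHM13 peaks. LPIN1, a phosphatidate phosphatase and the gene of the first printed window, had 4 and 5. VWF, which encodes von Willebrand factor of clotting, had 5 and 10.

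ERGIC1, of transport between the endoplasmic reticulum and the Golgi, had 3 RPE-1 and 9 CHM13 RAD21 peaks. HRH1, the histamine H1 receptor, had 3 and 10, and the ligand WNT5B 3 and 7. EIF2AK3, the kinase PERK of the unfolded protein response, had 3 in each line, carboxypeptidase CPM likewise 3 in each, and JRKL 3 and 4. All 10 held CHM13 RAD21 peaks too, at 28.7 to 97.9 per Mb, beside a median of 19.6 over all 2946 genes. Of all 2946 genes 89% held one. Because 98.0% of intronic RPE-1 RAD21 peaks overlapped a CHM13 RAD21 peak, the presence of CHM13 peaks in these genes is no separate result.

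**Figure D5:**
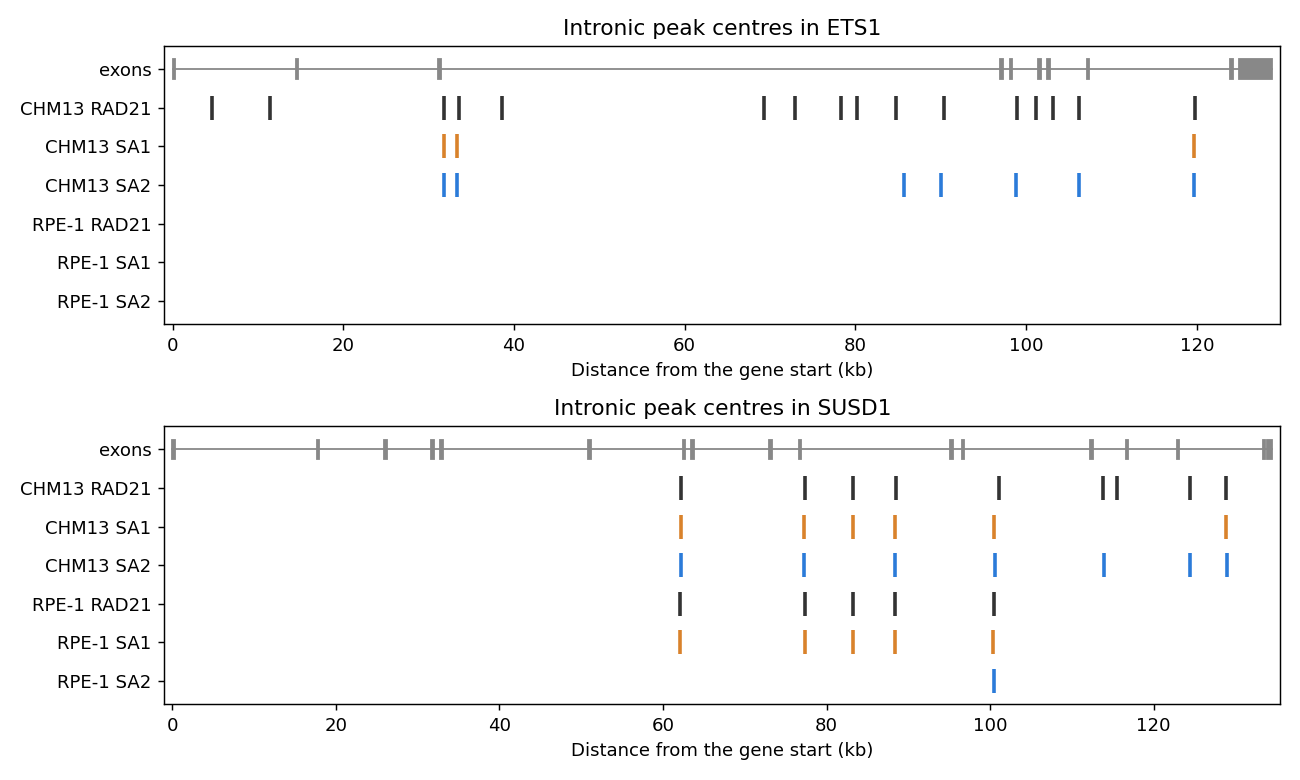
Centres of intronic peaks of the 6 lists (ticks, 1 row per list) along ETS1 (top) and SUSD1 (bottom), in kb from the gene start, with the exons of the canonical transcript as grey boxes. ETS1 has 16 RAD21 ticks in CHM13 cells and none in the RPE-1 rows, while in SUSD1 5 RPE-1 RAD21 ticks stand close to ticks of the 9 in CHM13 cells.

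By number rather than density, RUNX1, a transcription factor of blood development, held the most CHM13 RAD21 peaks, 92 in 1156 kb of intron space, with 41 SA1 and 42 SA2 peaks. It had 4 RAD21 peaks in RPE-1 cells. RBMS3, an RNA-binding protein, held 64 in CHM13 and 2 in RPE-1 cells. Among the 10 genes with the most were also NAALADL2 with 63 and 0, the cadherin CDH13 with 61 and 4, the focal adhesion protein LPP with 61 and 1, the scaffold MAGI2 with 59 and 5 and NCKAP5 with 58 and 2. A pair of gene models without a symbol, ENSG00000283563 with 59 and ENSG00000285708 with 57, were among the 10 as well. The first overlaps RBMS3 and the second overlaps FOXP1, so their peaks are counted in more than 1 gene.

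Long genes also included some with no intronic RAD21 peak in CHM13 cells. The longest intron spaces without one were those of AGBL4 (1409 kb), the netrin receptor DCC (1164 kb), the transcription factor SOX5 (1000.4 kb), the contactin CNTN4 (922 kb) and the secreted protein NELL1 (873 kb). Each had 0 SA1 and 0 SA2 peaks in CHM13 cells as well, and the interval for a count of 0 reaches 2.62 RAD21 peaks per Mb in AGBL4 and 4.23 in NELL1. AGBL4 and SOX5 each had 1 RAD21 peak in RPE-1 cells, and DCC, CNTN4 and NELL1 had 0.

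To compare genes between the lines on a common scale, each gene's RAD21 count plus 0.5 was divided by the number of intronic RAD21 peaks of the line. By this measure 407 of 2946 genes (13.8%) were over 2-fold higher in CHM13 cells and 1010 (34.3%) over 2-fold higher in RPE-1 cells. Both counts rest partly on genes without a peak. Of the 407 genes, 304 had no RPE-1 RAD21 peak, and of the 1010 genes, 308 had no RAD21 peak in either line, for which the ratio is 0.173 from the 0.5 alone. Among the 780 genes with 10 or more RAD21 peaks in both lines together, the counts were 244 (31.3%) and 77 (9.87%). That limit is on the summed count, which a gene reaches mainly through the longer CHM13 list, so it keeps genes with many CHM13 peaks, and nothing is read from the changed balance of the counts.

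Highest on the CHM13 side were NAALADL2 with 63 CHM13 and 0 RPE-1 RAD21 peaks, DLC1 with 39 and 0, the neurexin-family protein CNTNAP2 with 38 and 0, BBS9 of the ciliary BBSome with 33 and 0, and the formin FMNL2 with 32 and 0. BBS9 had 3 SA1 and 2 SA2 peaks in RPE-1 cells despite the absence of RAD21 from that list. On the RPE-1 side the rule gave genes of few peaks, namely KLHL29 with 0 CHM13 and 2 RPE-1 peaks, the calsyntenin CLSTN2 with 1 and 5, and AGBL4, ARAP2 and CES5A with 0 and 1 each. Among genes with 10 or more peaks, a limit under which these were chosen after their values were seen, the 5 highest on the RPE-1 side included KAZN with 6 CHM13 and 7 RPE-1 peaks, the cell adhesion protein LSAMP with 6 and 6, GRIP1, a scaffold of glutamate receptors, with 7 and 6, and ABR with 6 and 5.

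Gene groups were described by their members with 100 kb or more of intron space. That left 17 of 34 matrix, 21 of 32 growth factor, 6 of 25 trophoblast and 6 of 14 cohesin genes. The lists were chosen with earlier results of these data known, so their values are a description and no test. Over all 2946 genes the median was 19.6 CHM13 RAD21 peaks per Mb. The 17 such genes of matrix, integrins and cytoskeleton had a median of 74.9, and 16 of them lay above 19.6. Vinculin, VCL, which links integrins to actin, had 122 per Mb from 13 peaks, and COL4A2, a chain of basement-membrane collagen, had 119 from 20. The laminin gene LAMA1 had 27.3 from 4, and FBN2, which encodes fibrillin, had 0. In these genes 54.1% (47.7 to 60.5) of 229 CHM13 RAD21 peaks overlapped neither SA protein, against 40.3% (39.6 to 41.0) over all 2946. In RPE-1 RAD21 their median was 0, with a peak in 8 of the 17 beside 53.6% of all 2946 genes, and their 14 peaks came to a pooled 4.43 per Mb beside 3.59 over all.

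The 21 growth factor signalling genes had a median of 59.2 CHM13 RAD21 peaks per Mb, and 15 lay above the median of all genes. SMAD3 and the hepatocyte growth factor receptor MET, with 11 CHM13 and 0 RPE-1 peaks, stood highest, and the insulin receptor INSR with 1 peak and FGFR2 with 0 lowest. Of the 25 trophoblast and epithelial genes, only 6 had 100 kb or more of intron space. Among those left out, GCM1, CDX2 and TFAP2C had 0 CHM13 RAD21 peaks and KRT8 had 4. The 6 had a median of 73.8, which does not stand for the whole list. They ran from TEAD1, a partner of the Hippo pathway, with 96.5 per Mb to PPARG, a nuclear receptor, with 7.82. EGFR, with 90.1 per Mb from 15 peaks and 0 in RPE-1 cells, and GRHL2, an epithelial transcription factor with 43.7, stood between them. EGFR belongs to both lists. The RPE-1 RAD21 median was 0 in both, with a peak in 10 of the 21 and 2 of the 6, beside 53.6% of all genes, and the pooled RPE-1 RAD21 density was 4.10 and 2.86 per Mb beside 3.59 over all.

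Genes of common fragile sites, very long genes that break under replication stress, were sparse in RAD21, as were very long genes at large. The 18 members pooled had 11.5 CHM13 and 0.785 RPE-1 RAD21 peaks per Mb, beside 14.5 and 1.28 in all genes of 1000 kb or more. The median of the 18 was 7.42 CHM13 RAD21 peaks per Mb and 0.611 in RPE-1 cells, with a median gene length of 1505 kb and a median GC content of 37.2%. In CHM13 cells 4 of the 18 lay above the median of all genes. RBFOX1 had 2 and MACROD2 1 CHM13 RAD21 peak, in 2341 and 1947 kb of intron space, while NAALADL2 and DPYD, which breaks down pyrimidines, had 48.8 and 44.5 per Mb. The 25 neuronal adhesion genes had a median length of 1118 kb and a median of 16.7 in CHM13 cells, from TENM4 and NTM at 54.0 and 52.4 per Mb to CNTN6 and NCAM1 with 0 peaks in all 6 lists. The 6 genes of cohesin and loop extrusion had a median of 13.9, with 23.5 in NIPBL, the cohesin loader, 18.0 in STAG2, which encodes SA2, 9.33 in the deacetylase HDAC8 and 0 in PDS5A. These densities are counts of peaks in each list and say nothing of the expression of the genes, which was not analysed here.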

How the data were processed

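The study made 20 ChIP-seq libraries, input included, for RAD21, SA1 and SA2 of CHM13 and RPE-1 cells. Per the labels, bcl2fastq 2.20, BWA, SAMtools and MACS2 were used with hg38, and per the methods replicate peaks were merged with GenomicRanges. Loci seen in fewer than 2 replicates were dropped there, which asks for 2 of 3 replicates in CHM13 and 2 of 2 in RPE-1 cells. The deposited lists hold the start and end of each peak in bp. They carry no heights or p-values. How the hg38 lists were made is not described in the methods, which cover CHM13 v1.0, and is not given in the sources used here. Lists on CHM13 v1.0 were not used, because no annotation of that build was used here.

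Peaks were assigned by their centre with Python 3.11.15 and numpy 2.4.6 (scipy 1.17.1 for intervals) to GENCODE 44 genes. A density is peaks per Mb of intron space without N. Overlap meant at least 1 shared base. Shares carry Wilson intervals, differences of shares Newcombe intervals, densities exact Poisson intervals and ratios conditional exact intervals, all at 95%. Ratios between lines carry a log-scale interval from the counts. A difference was called where its interval left out 1 for a ratio, 50% for the strand share and 0 for a difference. The counting was checked on simulated peaks. How many peaks a list holds depends on depth, antibody and replicates, so densities are comparable within a list.

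The genes named were, among those with 100 kb or more of intron space, the 10 densest in RAD21 per line, the 10 with most CHM13 RAD21 peaks, the 5 longest with none, the 5 most different between lines in each direction, and the 2 highest and 2 lowest of each gene list, plus genes of the printed windows. A few genes that met these rules are not reported here. The members and lists were chosen with earlier results of these data known. The alternatives joined close peaks, asked for all 3 subunits, and changed distances, length limits, overlap, motif, window, chromosomes and the sequence compared with. Printed sequences, and the counts of windows given with them, are hg38 without chromosome 8.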

Additional observations from a re-analysis of the deposited data

Results flagged for a closer look

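Effects of the same contrast differed between CHM13 and RPE-1 cells for 11 results, by an interval for the difference itself that left out 1. The lines cannot be told apart from sonicator, added Drosophila chromatin, number of replicates, depth and, for RAD21, antibody. The odds that a peak was intronic differed 1.28-fold between the lines for RAD21, 0.884-fold for SA1 and 1.08-fold for SA2, each as CHM13 over RPE-1. The density of long relative to short genes was 2.23 times as high in CHM13 as in RPE-1 cells for RAD21, 1.33 times for SA1 and 2.02 times for SA2. The density in the first relative to the last 20% of genes was 1.45 times as high for RAD21 and 1.36 times for SA2. The density of first relative to later introns was 1.40 times as high for RAD21, 1.16 times for SA1 and 1.40 times for SA2. The 2 replicates of RPE-1 and 3 of CHM13 are pooled in the lists, so no spread between replicates stands behind these values.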

How the results depend on the processing

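Of 361 values under alternative settings, 274 kept their direction and side of the threshold or stayed within their interval, 27 lost their call, 14 gained one, 25 turned direction and 21 moved. For the density of 20 named genes, 118 of 120 values stayed within the interval, and the other two were the RPE-1 density of GNG7 and of EXT1 at more than 5 kb from gene ends, 8.12 and 0 per Mb. The cause was not tested unless the setting itself fixes it. No paired analysis was possible because the lists pool the replicates, and leaving out a replicate was not possible for the same reason. Differences below are in percentage points, intronic minus other peaks.

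Against sequence outside genes the density ratio was 1.35, 1.04 and 1.14 for CHM13 RAD21, SA1 and SA2 and 1.04, 1.11 and 1.05 for the RPE-1 lists. By bases covered it was 0.946 for CHM13 RAD21 and 0.915 for CHM13 SA2. More than 5 kb from gene ends, the intron shares of the 6 lists were 32.5, 28.6, 30.8, 25.9, 30.7 and 28.3%, and the density ratio was 0.998 for CHM13 RAD21 and 0.918 for RPE-1 SA1. With the whole peak in intron space the shares were 32.4, 29.0, 31.4, 27.5, 32.6 and 30.4%, the density ratio 0.810 for CHM13 RAD21 and 0.817 for RPE-1 SA1, and the odds ratio between lines 1.05 for SA2. Fewer peaks can qualify under both settings. With only peaks that overlap both other subunits, the shares were 35.7% for CHM13 RAD21, 35.6% for CHM13 SA1, 33.0% for RPE-1 RAD21 and 33.0% for RPE-1 SA1, the density ratio 0.936 for CHM13 RAD21 and 0.833 for RPE-1 SA1, and the SA1 odds ratio 1.12. Without chromosome X the density ratio was 0.994 for CHM13 RAD21 and 0.947 for RPE-1 SA1.

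The ratio of long to short genes with whole peaks was 1.15, 0.999 and 1.12 for the CHM13 lists, and without chromosome X 0.966 for CHM13 SA2. The first to later intron ratio of CHM13 RAD21 was 0.957 with peaks under 1 kb apart joined, 0.731 with all 3 subunits, 1.01 with whole peaks and 1.25 for introns that start over 10 kb from the gene start, where CHM13 SA1 and SA2 had 0.949 and 1.14. In intron space over 10 kb from the gene start, a setting chosen after seeing the data, all 6 calls stayed as they were.

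The share of RPE-1 RAD21 peaks with both SA proteins differed by 2.23 with an overlap of 50% of both peaks and by 2.23 at 5 kb. For peaks found in the other line, the RPE-1 differences were 1.39, -3.49 and -2.71 with 50% overlap, and 0.292, 0.108 and 0.384 with all 3 subunits. They were 0.607 for SA1 and 0.572 for SA2 at 5 kb, and 0.552 for SA2 with whole peaks.

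For the CTCF sequence, the strict core gave -0.176, 1.99 and 0.685 for the CHM13 lists and 2.71, 0.476 and 0.119 for the RPE-1 lists. A 100-bp window gave 0.113 for CHM13 SA1 and -0.033, 0.169 and -1.63 for the RPE-1 lists. RPE-1 RAD21 had -1.50 with joined peaks and -0.772 with all 3 subunits, RPE-1 SA2 -1.91 with all 3 subunits, and RPE-1 SA1 -3.18 at 5 kb and -2.59 with whole peaks.

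The share of strict cores on the gene's strand was 47.8% for CHM13 SA2 with joined peaks. With all 3 subunits it was 47.7% for CHM13 RAD21, 47.6% for CHM13 SA1 and 44.8% for RPE-1 SA2. It was 46.9% for CHM13 SA1 at 5 kb, and with whole peaks 48.6% for CHM13 SA2, 47.6% for RPE-1 SA1 and 46.6% for RPE-1 SA2. Without chromosome X it was 46.6% for RPE-1 SA1. With the fragment in place of the core it was 48.2% for CHM13 SA1, 48.4% for CHM13 SA2, 49.0% for RPE-1 SA1 and 47.0% for RPE-1 SA2.

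Genes over 2-fold higher in CHM13 and in RPE-1 cells numbered 257 and 336 with 200 kb or more of intron space, and 244 and 77 with 10 or more peaks, a limit on the summed count that is reached mainly through the longer CHM13 list and so sets the balance of the counts in part. The short RPE-1 lists limit what can be seen in a single gene there, where 3 to 6 peaks made the densest genes.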
